A study of Rattus norvegicus with 12 samples.

Results

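The monocyte genes Lyz2, Cybb, Csf1r, F13a1, Fn1, Vcan, Cd163 and Fcgr1a, were followed in rat whole blood. Rows of the deposited count tables were taken where the gene symbol matched one of these names, which gave 8 of 17337 genes. The 8 symbols were proposed as monocyte genes with earlier results of these data in view, and no contrast or cut-off behind the choice is recorded. Any measured difference between strains or treatments below may thus be one they were picked on. The p-values below are therefore rows of a fit over all genes and no independent support for the choice. All 8 passed the low count filter that left 2781 genes for testing. The blood came from adult male rats of the inbred strains WKY (Wistar Kyoto) and F344 (Fischer), aged 70 to 90 days at the start. All rats went through contextual fear conditioning, then 4 weeks in the home cage, and a second round of conditioning, with death by decapitation 24 h after its last day. Between the rounds the chronic restraint stress (CRS) rats were restrained for 2 hours a day over 2 weeks, whereas the unstressed (NS) rats stayed undisturbed. The 4 groups were WKY after CRS, WKY without stress, F344 after CRS and F344 without stress, with 3 libraries each. The controls were therefore fear-conditioned rats and not naive ones. The labels do not state that each library came from its own rat, so each p-value reflects only how far the libraries of a group lie apart.

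Monocytes are phagocytes that leave the bone marrow, circulate and give rise to macrophages in tissues. Their survival and maturation depend on signalling through the CSF1 receptor and on the transcription factor PU.1, encoded by Spi1. They carry bactericidal lysozyme, make superoxide with the phagocyte NADPH oxidase, bind antibody through Fc receptors, and carry clotting and matrix proteins that act in tissue repair. Lyz2 encodes lysozyme, Cybb the catalytic subunit of the oxidase, Csf1r the CSF1 receptor and Fcgr1a the high-affinity IgG receptor. Cd163 encodes the scavenger receptor for haptoglobin-haemoglobin complexes, F13a1 the catalytic subunit of clotting factor XIII, Fn1 fibronectin and Vcan the proteoglycan versican. None of these is made by monocytes alone: lysozyme and the oxidase are also made by neutrophils, and F13a1 is abundant in platelets. In whole blood, fewer cells of a type and less RNA per cell cannot be told apart.

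Lyz2 has a close neighbour in the rat genome, Lyc2, a second lysozyme gene that RefSeq also lists under the older name Lyz2. The start regions of both genes are shown because reads from such copies can be assigned to either gene or to neither. The start region of Cybb is shown because Cybb, like Lyz2, differed between strains. Sequences are from RefSeq (build GRCr8, made from another strain, BN), 5′ to 3′ on the gene's own strand, and cover the 100 bases before the annotated start. Capitals mark the core of the PU.1 motif, GAGGAA, or its reverse, TTCCTC.
Lyz2 (chr7:54798012-54798111, minus strand): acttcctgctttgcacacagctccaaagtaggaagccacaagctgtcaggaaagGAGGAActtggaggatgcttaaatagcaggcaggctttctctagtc
Lyc2 (chr7:54772909-54773008, plus strand): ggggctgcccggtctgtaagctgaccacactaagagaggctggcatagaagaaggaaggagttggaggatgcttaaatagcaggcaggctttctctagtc
Cybb (chrX:16065066-16065165, minus strand): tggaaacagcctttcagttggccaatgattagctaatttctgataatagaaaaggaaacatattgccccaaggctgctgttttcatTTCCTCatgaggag
Lyz2 and Lyc2 shared the last 39 bases before the start without a difference, and all 50 of the next 50 bases. No other annotated gene lay between them. The PU.1 core was found 46 bases before the start of Lyz2 and 14 before that of Cybb, and not in this window of Lyc2. Within 250 bases before the start it was found on either strand in Lyz2, Cybb, Csf1r and F13a1, and not in the windows of Cd163 or Vcan. These 6 members had 7 annotated windows, of which 4 held the core. Of all 33469 RefSeq windows of this length, 23.3% held it. The motif is short, and a match describes the sequence only.

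Depth set the precision of every value. Genes received 1691956 to 3846263 counts per library, but the 3 most abundant features took 88.9% to 94.6% of them. These were LOC310926, Rn5-8s and LOC257642. That left 90796 to 419789 counts for all other genes. Reads recorded as ambiguous between features made up 78.3% to 83.6% of all recorded reads. The 8 members together had 89 to 759 counts in a library, of which Lyz2 gave 44.9% to 72.1%. Levels are given as CPM, counts scaled to the library total, after TMM scaling, in which 1 count was worth 0.202 to 1.14 CPM. Unstressed F344 replicates 2 and 3 stood apart as the libraries with the fewest members' counts, 131 and 89. Markers of blood were present throughout: the summed erythroid markers, globin included, lay between 21046 and 42863 CPM. The classical monocyte marker Cd14 was close to the limit of detection, with 0 to 5 counts per library. The fractalkine receptor Cx3cr1 had 1 to 18 counts and the lysosomal marker Cd68 had 0 to 7, and none of the 3 passed the filter. Spi1, Tyrobp and Mpeg1, which monocytes also express, passed it.

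Lyz2 and Cybb were higher in WKY than in F344 blood. Averaged over treatments, Lyz2 was 1.99-fold and Cybb 3.31-fold higher in WKY, and these were the 2 of 8 members called, beside 3.74% of all tested genes. In WKY, Lyz2 stood at 139, 95.1 and 122 CPM after CRS and at 91.4, 104 and 99.5 CPM without stress. In F344, Lyz2 stood at 60.0, 56.3 and 67.6 CPM after CRS and at 51.8, 45.7 and 45.8 CPM without stress. After TMM scaling every WKY library lay above every F344 library.

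The averaged strain difference of Lyz2 was log2 1.00 (SE 0.20, edgeR adjusted p = 0.00112). After CRS alone it was log2 0.96 (SE 0.27, edgeR adjusted p = 0.0724) and without stress log2 1.03 (SE 0.28, edgeR adjusted p = 0.0750), so neither passed in the reported fit. These 2 calls depended on the method and the libraries: after CRS Lyz2 passed in 8 of 22 alternatives and without stress in 7 of 22. Both passed with DESeq2 (adjusted p = 0.00457 after CRS and 0.00430 without stress), limma-voom (0.0123 and 0.0176) and an edgeR minimum count of 20 (0.0327 and 0.0484). Both also passed in edgeR without stressed WKY replicate 2 (adjusted p = 0.0336 and 0.0390) or unstressed F344 replicate 1 (0.0236 and 0.0400). The comparison after CRS passed as well without unstressed F344 replicate 2 (edgeR adjusted p = 0.0498) and without replicates 2 and 3 of that group (0.0308). The comparison without stress passed as well with no low count filter (edgeR adjusted p = 0.0319). The averaged call held under all 21 alternatives, with log2 values between 0.93 and 1.07. Lyc2 averaged 16.6 ± 4.69 CPM in WKY and 11.4 ± 2.64 CPM in F344 (SD, n = 6 each). Its difference pointed the same way and did not pass (log2 0.56, SE 0.24, edgeR adjusted p = 0.226). With the counts of both lysozyme genes summed, the strain difference was log2 0.93 (edgeR adjusted p = 0.00272). Reads recorded as ambiguous are outside this sum.

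Cybb counts were low, yet the strains did not overlap. In WKY there were 26, 15 and 17 counts after CRS and 19, 15 and 15 without stress, that is 6.62, 6.54 and 5.59 CPM and 4.37, 4.92 and 5.81 CPM. In F344 there were 9, 7 and 5 counts after CRS and 5, 4 and 1 without stress, that is 1.82, 2.39 and 1.01 CPM and 1.38, 2.44 and 1.14 CPM. The lowest WKY library was above the highest F344 library, although the value of unstressed F344 replicate 3 rested on 1 count. The averaged difference was log2 1.73 (SE 0.33, edgeR adjusted p = 0.000859). After CRS it was log2 1.88 (SE 0.43, edgeR adjusted p = 0.0114), and without stress log2 1.57 (SE 0.51, edgeR adjusted p = 0.180). The averaged call held under the 19 alternatives in which Cybb was tested, at log2 1.58 to 1.89, and with a minimum count of 20 Cybb dropped out of testing. After CRS, Cybb was the 1 of 8 members called, beside 1.29% of all tested genes, and without stress 0 of 8 were called, beside 0.683%. The call after CRS ended with no low count filter (edgeR adjusted p = 0.0895). It also ended without stressed WKY replicate 1 (edgeR adjusted p = 0.0631), stressed F344 replicate 1 (0.0690) or stressed F344 replicate 3 (0.145).

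Both differences were also present on a scale without TMM scaling that left the 3 most abundant features out of the library total. In CPM of what remained, Lyz2 lay between 937 and 1714 in WKY and between 384 and 860 in F344. On the same scale Cybb lay between 54.6 and 88.0 in WKY and between 11.01 and 26.1 in F344. With the full library total and no TMM scaling, the strains overlapped for Lyz2. Stressed WKY replicate 2, with 218 Lyz2 counts of 2805257, then lay below stressed F344 replicate 1, with 297 of 3254762. The TMM factors ran from 0.519 to 1.53. Of all tested genes, 2.12% were called higher in WKY in the averaged comparison. After TMM scaling 2.34% did not overlap between the 6 libraries of each strain. Of the members, 2 of 8 (Lyz2 and Cybb) did not overlap. After CRS 4 of 8 members did not overlap between strains (Lyz2, Cybb, Fn1 and Vcan), beside 19.6% of all tested genes. Without stress it was 4 of 8 (Lyz2, Cybb, Csf1r and Fcgr1a), beside 14% of all tested genes. These counts are after TMM scaling. Outside the 3 most abundant features and without TMM scaling, Csf1r and Fcgr1a overlapped between the unstressed groups. For Csf1r, unstressed F344 replicate 1 (172) lay above unstressed WKY replicate 1 (167). For Fcgr1a, unstressed F344 replicate 2 (25.6) lay below unstressed WKY replicate 1 (28.7), whereas F344 replicate 1 (49.9) lay above it. Whether reads of both strains align equally well to the genome build was not tested.

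**Figure D1:**
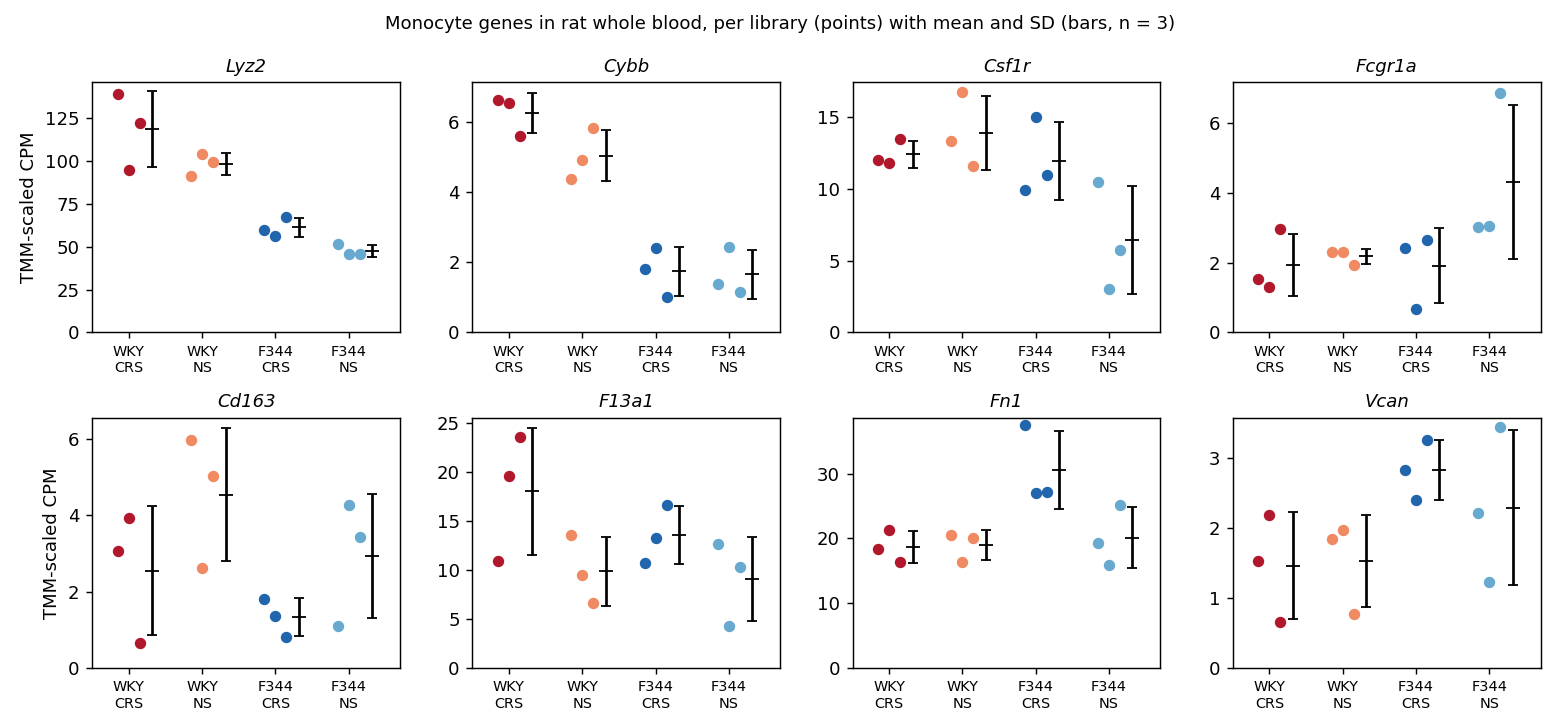
TMM-scaled CPM (vertical axes, each from 0) of the 8 monocyte genes in the 4 groups, with 1 point per library and a bar for mean ± SD (n = 3). Lyz2 and Cybb separate all WKY from all F344 libraries, whereas the other 6 genes overlap between strains.

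The surface receptor genes Csf1r, Cd163 and Fcgr1a did not pass in any strain comparison of the reported fit. Csf1r stood at 12.0, 11.8 and 13.5 CPM in stressed WKY and at 13.4, 16.7 and 11.6 CPM in unstressed WKY. It stood at 9.89, 15.02 and 10.96 CPM in stressed F344 and at 10.5, 3.05 and 5.72 CPM in unstressed F344. The low values were those of unstressed F344 replicates 2 and 3, with 5 counts each. Without stress Csf1r was log2 0.97 higher in WKY (SE 0.37, edgeR adjusted p = 0.320), and after CRS the difference was log2 0.07 (SE 0.33, edgeR adjusted p = 0.963). Leaving out unstressed F344 replicate 1, the only F344 control library with over 5 counts, brought the difference without stress to log2 1.77 (edgeR adjusted p = 0.0453) and the averaged one to log2 0.92 (edgeR adjusted p = 0.0495), against log2 0.52 with all libraries (SE 0.25, edgeR adjusted p = 0.310). Without replicate 2 of that group the difference without stress was log2 0.65 (edgeR adjusted p = 0.833) and without replicates 2 and 3 it was log2 0.42 (0.976). The averaged one was then log2 0.36 and log2 0.25, neither of which passed (edgeR adjusted p = 0.555 and 0.775).

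Cd163 averaged 3.55 ± 1.88 CPM in WKY and 2.13 ± 1.39 CPM in F344 (SD, n = 6 each), from 2 to 26 and 3 to 9 counts per library. Its averaged difference of log2 0.88 (SE 0.43) did not pass (edgeR adjusted p = 0.328). Fcgr1a averaged 2.05 ± 0.60 CPM in WKY and 3.11 ± 2.03 CPM in F344, and its difference of log2 -0.43 (SE 0.42) did not pass either (edgeR adjusted p = 0.712). The highest Fcgr1a level, 6.86 CPM in unstressed F344 replicate 3, came from 6 counts.

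The secreted and matrix genes had another order of groups. Fn1 stood at 18.3, 21.4 and 16.4 CPM in stressed WKY and at 20.5, 16.4 and 20.1 CPM in unstressed WKY. It stood at 37.5, 27.0 and 27.2 CPM in stressed F344 and at 19.3, 15.8 and 25.2 CPM in unstressed F344. After TMM scaling the stressed F344 libraries were thus the 3 highest of all 12, and the other 3 groups overlapped each other. Without TMM scaling, in CPM outside the 3 most abundant features, stressed F344 replicates 1 (539) and 3 (319) were still the highest. On that scale stressed F344 replicate 2 (280) lay below unstressed F344 replicate 1 (317) and unstressed WKY replicate 3 (305). Against stressed F344, stressed WKY differed by log2 -0.72 (SE 0.29), which did not pass (edgeR adjusted p = 0.305).

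Vcan averaged 1.49 ± 0.64 CPM in WKY and 2.55 ± 0.81 CPM in F344 (SD, n = 6 each), with 2 to 8 counts and 2 to 16 counts per library. The averaged difference was log2 -0.71 (SE 0.47, edgeR adjusted p = 0.527). F13a1 averaged 14.0 ± 6.48 CPM in WKY and 11.3 ± 4.13 CPM in F344, a difference of log2 0.25 (SE 0.26, edgeR adjusted p = 0.734). Over the 8 members the averaged strain difference was positive for 5 and negative for 3, with a median of log2 0.38, against 49.1% positive and a median of log2 -0.01 over all genes tested.

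Restraint changed no member past the threshold. In WKY edgeR called 0 of 2781 genes (0%), where 161 had an unadjusted p under 0.05. DESeq2 called 0 as well. In F344 edgeR also called 0 (0%), where 130 had an unadjusted p under 0.05, and 0 were called with DESeq2. Averaged over strains 1 gene was called (0.036%) and none of the members, and DESeq2 called 3 genes. In WKY 0 of 8 members did not overlap between stressed and unstressed libraries, beside 10.1% of all tested genes. Between the 6 libraries of each treatment it was also 0 of 8, beside 0.216%. The median over the members was log2 -0.09 in WKY, with 3 of 8 positive, and log2 0.38 in F344, with 6 of 8 positive. Over all genes tested the medians were 0.02 and 0.01, with 51.2% and 51.0% positive.

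F13a1 had the largest upward difference after restraint of the 8, when averaged over strains. It stood at 10.95, 19.6 and 23.7 CPM in stressed WKY, against 13.6, 9.50 and 6.58 CPM in unstressed WKY. It stood at 10.7, 13.3 and 16.6 CPM in stressed F344, against 12.7, 4.26 and 10.3 CPM in unstressed F344. The groups overlapped in both strains. The averaged difference of log2 0.67 (SE 0.26) had an unadjusted p of 0.0135 in edgeR and did not pass (adjusted p = 0.566). It was log2 0.83 (SE 0.35) in WKY and log2 0.52 (SE 0.38) in F344. The F344 value was log2 1.03 without unstressed F344 replicate 1, log2 0.20 without replicate 2, log2 0.11 without replicates 2 and 3 of that group, and log2 0.34 without stressed F344 replicate 3. Platelet markers, 12 of 15 listed genes matched, summed to 117 to 195 CPM in stressed WKY and 70.1 to 131 CPM in unstressed WKY. They summed to 93.3 to 109 CPM in stressed F344 and 48.0 to 81.6 CPM in unstressed F344. Of these markers Gp1bb was at 0 in every library. The part of platelets in the F13a1 values was not tested.

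In F344 the differences with the smallest p of the 8 were those of Fn1 and Csf1r, both upward. Fn1 averaged 30.6 ± 6.04 CPM in stressed F344 and 20.1 ± 4.72 CPM in unstressed F344 (SD, n = 3 each). After TMM scaling the groups did not overlap. The difference of log2 0.64 (SE 0.30) did not pass (edgeR adjusted p = 0.918). In WKY Fn1 averaged 18.7 ± 2.49 CPM after CRS and 19.0 ± 2.27 CPM without stress. Csf1r averaged 12.0 ± 2.71 CPM in stressed F344 and 6.41 ± 3.77 CPM in unstressed F344, a difference of log2 0.73 (SE 0.37, edgeR adjusted p = 0.918). Without unstressed F344 replicate 1 this difference was log2 1.53. Without unstressed F344 replicates 2 and 3 together it was log2 0.18, in a fit where the lone library of that group is assumed to vary like the others. In F344, after TMM scaling, 3 of 8 members did not overlap between stressed and unstressed libraries (Lyz2, Fn1 and Fcgr1a), beside 11.9% of all tested genes. Without TMM scaling, outside the 3 most abundant features, the groups overlapped for all 3. For Fcgr1a, stressed replicate 1 (34.8) then lay above unstressed replicate 2 (25.6). Fcgr1a pointed downward in F344 (log2 -0.90, SE 0.58, edgeR adjusted p = 0.962).

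Cd163 had the most negative averaged difference after restraint of the 8, without passing. It stood at 3.06, 3.93 and 0.657 CPM in stressed WKY, against 5.99, 2.62 and 5.03 CPM in unstressed WKY. It stood at 1.82, 1.37 and 0.812 CPM in stressed F344, against 1.10, 4.26 and 3.43 CPM in unstressed F344. The groups overlapped in both strains. The fitted differences were log2 -0.87 (SE 0.54) in WKY and log2 -0.89 (SE 0.68) in F344. Their mean of log2 -0.88 (SE 0.44) did not pass (edgeR adjusted p = 0.697). In F344 the sign turned without unstressed replicates 2 and 3 (log2 0.27), which held 7 and 3 of the 14 Cd163 counts of that group.

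Lyz2 and Cybb, the genes that separated the strains, did not pass in any comparison of restraint. Lyz2 averaged 119 ± 22.3 CPM in stressed WKY and 98.4 ± 6.47 CPM in unstressed WKY (SD, n = 3 each). It averaged 61.3 ± 5.74 CPM in stressed F344 and 47.8 ± 3.54 CPM in unstressed F344. The Lyz2 levels of these F344 groups did not overlap after TMM scaling but did without it. The mean difference over strains was log2 0.31, with a 95% interval of -0.07 to 0.70 (edgeR adjusted p = 0.843). For Cybb it was log2 0.17, with an interval of -0.51 to 0.85 (edgeR adjusted p = 0.976). After TMM scaling the order of Lyz2 levels was stressed WKY, unstressed WKY, stressed F344 and unstressed F344, and the first 2 groups overlapped. The order was the same for Cybb, where the 2 F344 groups also overlapped.

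The response to restraint was also compared between strains. For none of the 8 members did the difference in response pass, and edgeR called 0 of 2781 genes (0%), where 106 had an unadjusted p under 0.05. The count was 0 with DESeq2 too. The largest differences of the 8 were those of Csf1r, log2 -0.90 (SE 0.49, edgeR adjusted p = 0.993), and Fcgr1a, log2 0.73 (SE 0.84, edgeR adjusted p = 0.993). For Lyz2 the difference in response was log2 -0.08, with a 95% interval of -0.84 to 0.68.

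**Figure D2:**
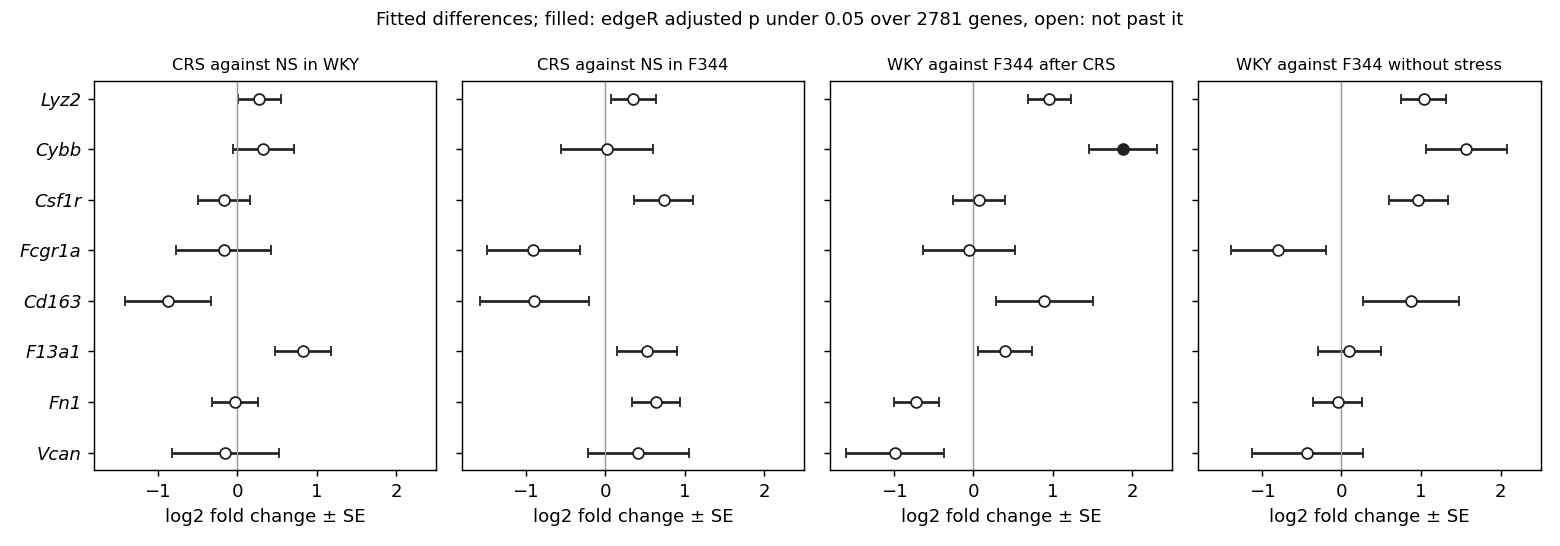
Log2 fold changes ± SE (horizontal axis) of the 8 monocyte genes in 4 comparisons, from 1 edgeR fit of 12 libraries. Filled points passed an adjusted p of 0.05 over 2781 genes: Cybb after CRS is the only one, at log2 1.88.

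The members did not rise and fall as 1 block across libraries. As a description over the 12 libraries, which share depth and composition, the correlation of a member with the mean standardized level of the other 7 ran from r = -0.48 for Fcgr1a to r = 0.40 for Csf1r. Lyz2 had r = 0.28 and Cybb r = 0.03. Of 1104 other genes averaging at least 5 CPM, those most like the mean pattern of the 8 were Grn (r = 0.93), Oas3 (0.90), Ifi27 (0.90), Arpc1b (0.88), Nlrp3 (0.87) and Svil (0.86). This mean pattern was lowest in the shallow unstressed F344 replicate 2, at -0.87, and lay between -0.31 and 0.40 in the other libraries. How far these r values rest on that 1 library was not tested. Grn encodes the lysosomal protein progranulin, Oas3 an antiviral enzyme, Arpc1b a subunit of the actin-nucleating Arp2/3 complex, and Nlrp3 an inflammasome sensor.

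The partners of these proteins were read from lists, with the 8 members left out. The oxidase that Cybb serves has a membrane partner, Cyba, and cytosolic subunits. Cyba had 1 to 9 counts per library and did not pass the filter. It averaged 1.67 ± 0.66 CPM in stressed WKY and 1.75 ± 0.93 CPM in unstressed WKY. In F344 it averaged 1.31 ± 0.54 CPM after CRS and 1.95 ± 0.98 CPM without stress (SD, n = 3 each). Of 5 tested oxidase genes 2 were positive and 0 were called in the averaged strain comparison, with a median of log2 -0.06. The cytosolic subunits Ncf4 (log2 0.13) and Ncf1 (log2 0.06) and the GTPase Rac1 (log2 -0.17) did not pass.

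Partners of the Fc receptor did not pass in the averaged strain comparison. Of 6 tested genes 5 were positive and 0 were called, with a median of log2 0.42. Examples were the Src family kinases Lyn (log2 0.48, SE 0.22, edgeR adjusted p = 0.274) and Fgr (log2 0.39). The Fc receptor gamma chain Fcer1g (log2 0.23) and the kinase Syk (log2 -0.10) did not pass.

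A list of Csf1, colony-stimulating factor receptors and monocyte transcription factors had 7 of 10 tested genes positive after CRS and 7 of 10 without stress. In the averaged strain comparison 10 of 10 were positive, beside 49.1% of all tested genes. The median was then log2 0.46, and 0 were called. Examples were the factors Klf4 (log2 0.91, SE 0.44, edgeR adjusted p = 0.332) and Cebpb (log2 0.62). Spi1 stood at log2 0.35 (SE 0.34, edgeR adjusted p = 0.717).

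Among 15 tested genes of the longer monocyte list 10 were positive, with a median of log2 0.31, and 1 was called. This was Tyrobp, the DAP12 adaptor of activating myeloid receptors. It averaged 6.20 ± 2.28 CPM in stressed WKY and 4.51 ± 0.60 CPM in unstressed WKY, against 2.73 ± 0.72 CPM in stressed F344 and 1.23 ± 1.24 CPM in unstressed F344 (SD, n = 3 each). The averaged difference of log2 1.27 (SE 0.34, edgeR adjusted p = 0.0285) held in 10 of 20 alternatives. Without both shallow unstressed F344 libraries it was log2 1.01 (edgeR adjusted p = 0.174). The adhesion receptor Adgre5 (log2 0.51), the pore-forming protein gene Mpeg1 (log2 0.69), the scavenger receptor Cd36 (log2 -0.62) and the inhibitory receptor Cd300a (log2 -0.11) did not pass.

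Tyrobp missed the threshold without stressed WKY replicate 2 (edgeR adjusted p = 0.0729), unstressed WKY replicates 1 (0.0667) or 2 (0.0550), stressed F344 replicates 1 (0.0783) or 2 (0.0528), or unstressed F344 replicates 2 (0.0729) or 3 (0.0597). Lysosome and scavenger genes split. Ctsb, the cysteine protease cathepsin B, was lower in WKY (log2 -1.29, SE 0.21, edgeR adjusted p = 7.58e-05), whereas Grn was higher (log2 0.97, SE 0.28, edgeR adjusted p = 0.0433). The call of Grn held in 9 of 20 alternatives and in 3 of 12 leave-outs of 1 library, those of stressed WKY replicate 2, unstressed WKY replicate 3 and unstressed F344 replicate 3. Over the other leave-outs its edgeR adjusted p lay between 0.0509 and 0.168. The sphingolipid activator Psap did not pass (log2 0.51). Adhesion and coagulation genes were positive in 9 of 9 tested, with a median of log2 0.26 and 0 called, the integrin genes Itgal (log2 0.47) and Itgb2 (log2 0.28) among them. Of all tested genes 49.1% were positive in that averaged comparison. After CRS alone 7 of the 9 were positive, and without stress 6.

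After restraint none of these partner genes was called. In the comparison averaged over strains, the medians were log2 0.05 for the longer monocyte list (10 of 15 positive) and log2 0.17 for the oxidase (5 of 5). They were log2 0.22 for the Fc receptor partners (5 of 6), log2 0.02 for the factors (6 of 10) and log2 0.05 for lysosome and scavenger genes (6 of 7).

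Markers of other cells that share these genes were measured beside them. Neutrophil markers, 19 of 20 listed genes matched, summed to 55.4 to 60.5 CPM in stressed WKY and 53.1 to 72.5 CPM in unstressed WKY. They summed to 40.6 to 54.9 CPM in stressed F344 and 34.3 to 57.1 CPM in unstressed F344. Of 6 tested 5 were positive in the averaged strain comparison, with a median of log2 0.32 and 0 called. S100a9, an abundant neutrophil calcium-binding protein, stood at log2 0.36 (SE 0.27, edgeR adjusted p = 0.594), and its partner S100a8 had 1 to 11 counts per library. Cxcr1 was at 0 in every library. Platelet markers differed more between strains: 8 of 9 tested were positive and 4 were called higher in WKY, with a median of log2 0.80. The 4 were Thbs1 (log2 1.14), which encodes thrombospondin, the integrin gene Itgb3 (log2 0.81), the tetraspanin gene Cd9 (log2 0.86) and the chemokine gene Pf4 (log2 0.80). Of 10 tested erythroid markers 2 were positive and 1, the globin gene Hbb-b1, was called lower in WKY (log2 -1.67, SE 0.24, edgeR adjusted p = 1.31e-05). Of 12 tested T cell markers 1 was positive and 1 was called lower in WKY, with a median of log2 -0.53. None was called among the tested markers of B cells (median log2 -0.03), NK cells (0.22) and dendritic cells (-0.33), and no eosinophil or basophil marker passed the filter. The 5 tested dendritic markers were RT1-Ba, RT1-Da, RT1-Db1, Cd74 and Ciita, genes of MHC class II presentation that are not specific to dendritic cells. Their median was log2 -0.87 after CRS and 0.20 without stress. That of the 3 tested NK markers was log2 0.59 and -0.15.

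Interferon-stimulated genes, a group to which Cybb and Fcgr1a are linked by their known induction by interferon gamma, differed more. They summed to 654 to 802 CPM in stressed WKY and 598 to 616 CPM in unstressed WKY. In F344 they summed to 340 to 366 CPM after CRS and 271 to 457 CPM without stress. Of 15 tested 15 were positive and 9 were called higher in WKY, with a median of log2 1.28, among them the regulator Irf7 (log2 2.00) and Oas1a (log2 3.64). Fcgr1a stood at log2 -0.43 with a 95% interval of -1.24 to 0.39, on 2 to 13 counts per library. The part of neutrophils, of platelets or of interferon signalling in the Lyz2 and Cybb values was not tested.

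**Figure D3:**
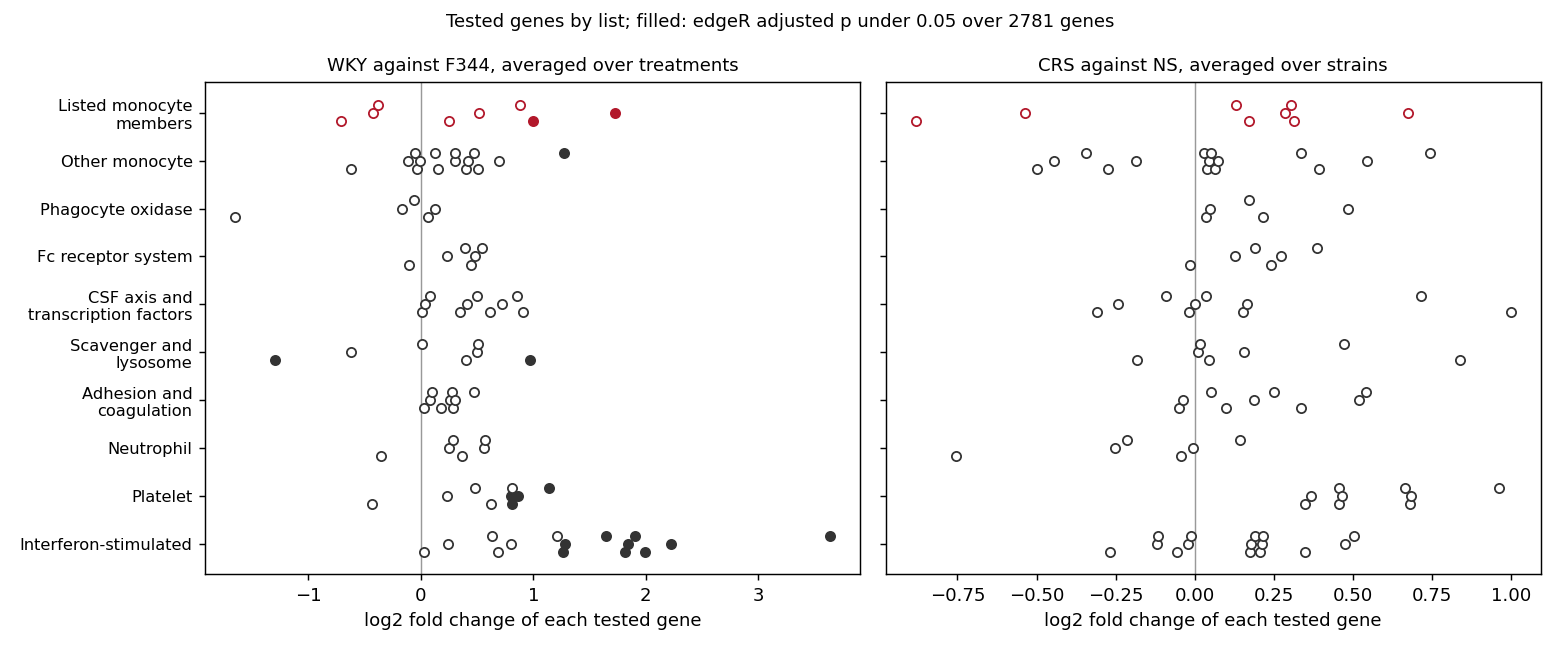
Log2 fold change (horizontal axis) of every tested gene in 10 lists, for WKY against F344 (left) and CRS against NS (right), with the 8 monocyte genes in red. Filled points passed an edgeR adjusted p of 0.05: among the members these are Lyz2 (log2 1.00) and Cybb (log2 1.73) on the left, and none on the right.

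**Figure D4:**
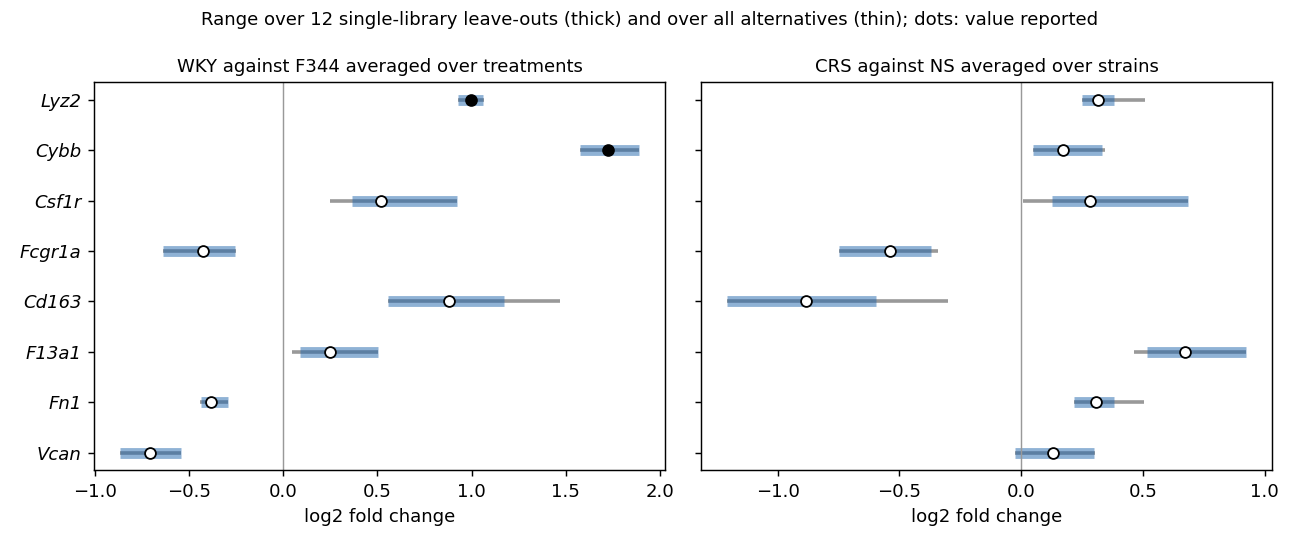
Log2 fold changes of the 8 monocyte genes as reported (dots, filled where called), with their range over 12 leave-outs of 1 library (thick bars) and over all alternatives (thin bars). In the strain comparison (left) Lyz2 stays between 0.93 and 1.07 and Cybb between 1.58 and 1.89, whereas for CRS (right) no filled dot appears.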

How the data were processed

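Per the file headers, the deposited files give a gene symbol and a whole-number count, not normalised, for 17337 genes in each of 12 libraries. Build rn6 and the tools TopHat2 2.1.0, Cufflinks 2.2.1 and cutadapt 1.14 are listed without roles, per the submitters' processing notes. Which program counted the reads, on which annotation and strand, is not given in the sources used here. PAXgene blood RNA was sequenced with Ion Proton protocols, per the labels. The 5 rows that name no gene took 80.9% to 86.6% of recorded reads and were left out of library sizes and tests. Libraries were grouped by their titles. No libraries of a group agreed within sampling noise (chi-square per degree of freedom 2.08 to 13.3).

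Counts were tested with edgeR 4.0.16 (R 4.3.3) by the quasi-likelihood test with TMM scaling, after filterByExpr with a minimum count of 10, in 1 fit of 4 group means. Benjamini-Hochberg adjustment ran over all 2781 tested genes, and calls needed an adjusted p under 0.05. SE were derived from the F statistic, and 95% intervals from the SE by the normal approximation. The procedure was tested on simulated data. Alternatives were DESeq2 1.42.0, limma 3.58.1 (voom with quality weights), other scalings and filters, subsets of groups, leave-outs and a replicate block. The members and the gene lists were chosen with earlier results of these data known. Named genes were the 8 members, Cd14, Cx3cr1, Spi1, Cyba, Fcer1g, S100a8, S100a9, Cd68, the list genes with the smallest p per direction (up to 2) and those called, and the 6 genes most like the mean pattern. A list gene that this rule names is not reported here. Lists were described by counts and medians. RefSeq tables (GRCr8) matched 8 of 8 members by symbol and gave start regions for 6. Intervals cover the spread between libraries only.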

Additional observations from a re-analysis of the deposited data

How the results depend on the processing

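The averaged strain call of Lyz2 held under all 21 alternatives and that of Cybb under the 19 in which it was tested, which leave out the minimum count of 20. The numbers of genes called were less stable. For restraint averaged over strains, 3 genes were called with DESeq2, 2 with limma-voom, 6 with no low count filter and 0 without unstressed F344 replicates 2 and 3, against 1 in the reported fit. Restraint in F344 gave 2 calls with limma-voom and 5 with no filter, and restraint in WKY gave 8 with no filter, against 0 in each reported fit. The difference in response gave 3 with no filter and 1 without the 2 shallow F344 libraries, against 0. The strain comparison without stress gave 9 with only the groups compared and 6 without the shallow libraries, against 19, and the averaged one gave 42 without them, against 104. Leaving out 1 library at a time gave 0 to 2 calls for restraint in WKY, 0 to 5 in F344 and 0 to 3 averaged. It gave 18 to 46 for strain after CRS, 5 to 44 without stress, 61 to 132 averaged and 0 to 2 for the difference in response. With no filter the median of all genes shifted to log2 0.36 for restraint in F344, 0.18 averaged, 0.22 for strain without stress and -0.35 for the difference in response. The cause was not tested.

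Some uncalled differences changed sign. For restraint in F344, Cybb was log2 -0.14 with limma-voom and Cd163 0.27 without the shallow libraries. For strain, Csf1r after CRS was -0.020 and Fn1 without stress 0.20 with no filter, and F13a1 without stress was -0.31 without the shallow libraries. In the difference in response, Cd163 was -0.20 with limma-voom, -0.33 with no filter, -1.14 without the shallow libraries and -0.083 with the replicate block. There F13a1 was -0.0080 with no filter and Lyz2 0.027 without the shallow libraries. With 1 library left out, restraint in WKY ranged from -0.60 to 0.0094 for Fcgr1a, -0.47 to 0.19 for Vcan, -0.13 to 0.055 for Fn1 and -0.27 to 0.0094 for Csf1r. Restraint in F344 ranged from -0.23 to 0.33 for Cybb, and averaged from -0.026 to 0.30 for Vcan. Strain after CRS ranged from -0.49 to 0.20 for Fcgr1a and -0.051 to 0.25 for Csf1r, and without stress from -0.17 to 0.11 for Fn1 and -0.22 to 0.61 for F13a1. The difference in response ranged from -0.56 to 0.67 for Cd163, -0.21 to 0.059 for Lyz2, -0.21 to 0.62 for F13a1 and -0.0024 to 0.56 for Cybb.

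Same-numbered libraries of different groups had r from -0.0901 to 0.204, over 0.1 in 4 of 18 pairs. Pairs with different numbers had r from -0.17 to 0.134, over 0.1 in 2 of 36. Whether replicate numbers mark a pairing was not tested. The replicate block gave 2 calls for restraint averaged over strains. With the block, as with DESeq2, limma-voom and the minimum count of 20, Lyz2 passed after CRS (log2 0.95, edgeR adjusted p = 0.0296) and without stress (log2 1.04, edgeR adjusted p = 0.0359). Depth limited the members other than Lyz2 most, with 1 to 186 counts per library, and Lyz2 had 40 to 547.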
